A study of Homo sapiens with 15 samples.

Results

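The 10 genes described here encode both cytosolic forms of the chaperone Hsp90 (HSP90AA1 and HSP90AB1), 6 of its co-chaperones (AHSA1, STIP1, CHORDC1, PTGES3, CDC37 and FKBP4) and 2 heat shock transcription factors (HSF1 and HSF2). They were chosen by name, and all 10 are rows of a table of 19143 gene symbols. Read counts were deposited for 15 libraries of MHCC-97H cells, a human liver cancer line long kept in culture. The first experiment holds 3 libraries each from an animal model, a 3D model and a 2D model. The second experiment, described as an additional round of sequencing, holds 3 heat-treated libraries of the 3D model and 3 untreated treatment controls of that model. All 5 groups share the same cell line, and no genetic change is given. The labels call the replicates biological but do not say that they are separate cultures or animals, so p-values reflect only how these libraries vary, which may be technical. The labels give neither the temperature nor how long cells were heated, when they were collected, or which host was used.

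Hsp90 is an ATP-driven dimer that holds client proteins, among them steroid receptors and many kinases, near their native fold. Co-chaperones pass clients on and pace the cycle. STIP1 (also called Hop) bridges Hsp70 and Hsp90, CDC37 brings kinases, AHSA1 stimulates the ATPase, PTGES3 (p23) steadies the closed form, FKBP4 (FKBP52) binds receptor complexes, and CHORDC1 is a zinc-binding partner of Hsp90. HSF1 is the main activator of the heat shock response: it forms trimers that bind heat shock elements, arrays of the short word GAA in alternating orientation. Hsp90 and its partners hold HSF1 inactive in unstressed cells, HSP90AA1 is known as the more inducible Hsp90 gene and HSP90AB1 as the more constitutive one. HSF2 is a related factor that can form mixed trimers with HSF1. Tumour cells are known to carry high levels of Hsp90, which many oncogenic kinases need.

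Total counts were 12605539 to 18634295 per library, and 14218 to 15666 genes had at least 1 read. In 3D replicates 1 and 2 and in 3D heat replicate 1, levels followed the base composition of the transcripts. Across genes, the rank correlation of their departure from the mean of the 2D libraries with transcript GC content was 0.748, 0.837 and 0.620. It was -0.259 to 0.221 in the other 12 libraries, of which the 2D libraries enter that mean themselves. Where stated, results for the 10 members that rest on these libraries are also given without them. A second check was a fit with an offset for GC content and transcript length in every library. The hepatocyte transcription factor HNF4A and the epithelial keratins KRT8 and KRT18 had reads in every library. The liver secretory marker ALB (albumin) was at 89.9 to 282 CPM in the animal libraries and 0.58 to 5.16 CPM in the other 12. Other secreted liver markers did not all move that way. TF, FGB, AFP and TTR had higher means in the animal libraries than in 2D. APOA1 and APOB had lower means there, at 0.12 against 1.39 CPM and 6.53 against 24.0 CPM. SERPINA1 measured 0.299, 46.9 and 3.29 CPM in animal replicates 1, 2 and 3 and 3.58, 5.36 and 3.33 CPM in 2D, so its higher animal mean rests on replicate 2. CPM is a count scaled to library size, after TMM scaling of the 15 libraries together.

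HSP90AB1, PTGES3 and HSP90AA1 were the most abundant members per length of transcript in the 2D libraries. Mean level divided by the length of the principal transcript was 505 CPM per kilobase for HSP90AB1, 418 for PTGES3, 395 for HSP90AA1 and 223 for STIP1. The lowest values on that scale were 36.0 CPM per kilobase for CHORDC1 and 5.05 for HSF2. HSF1 stood at 92.9 CPM per kilobase. The members also differed in how far they moved: the highest library exceeded the lowest 18.1-fold for HSP90AA1 and 17.3-fold for CHORDC1, but 2.87-fold for PTGES3 and 2.62-fold for CDC37. Over the 12 libraries without the composition trend, a choice made after seeing the data, those ranges were 5.56-, 4.20-, 2.46- and 1.69-fold. GENCODE lists pseudogenes of HSP90AA1, HSP90AB1, STIP1, PTGES3, CDC37 and FKBP4, and how reads shared with them were counted is not given in the sources used here. HSF1 shares 139 of its 2233 exon bases with DGAT1, an enzyme of fat synthesis on the opposite strand, so a part of its reads cannot be assigned.

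**Figure D1:**
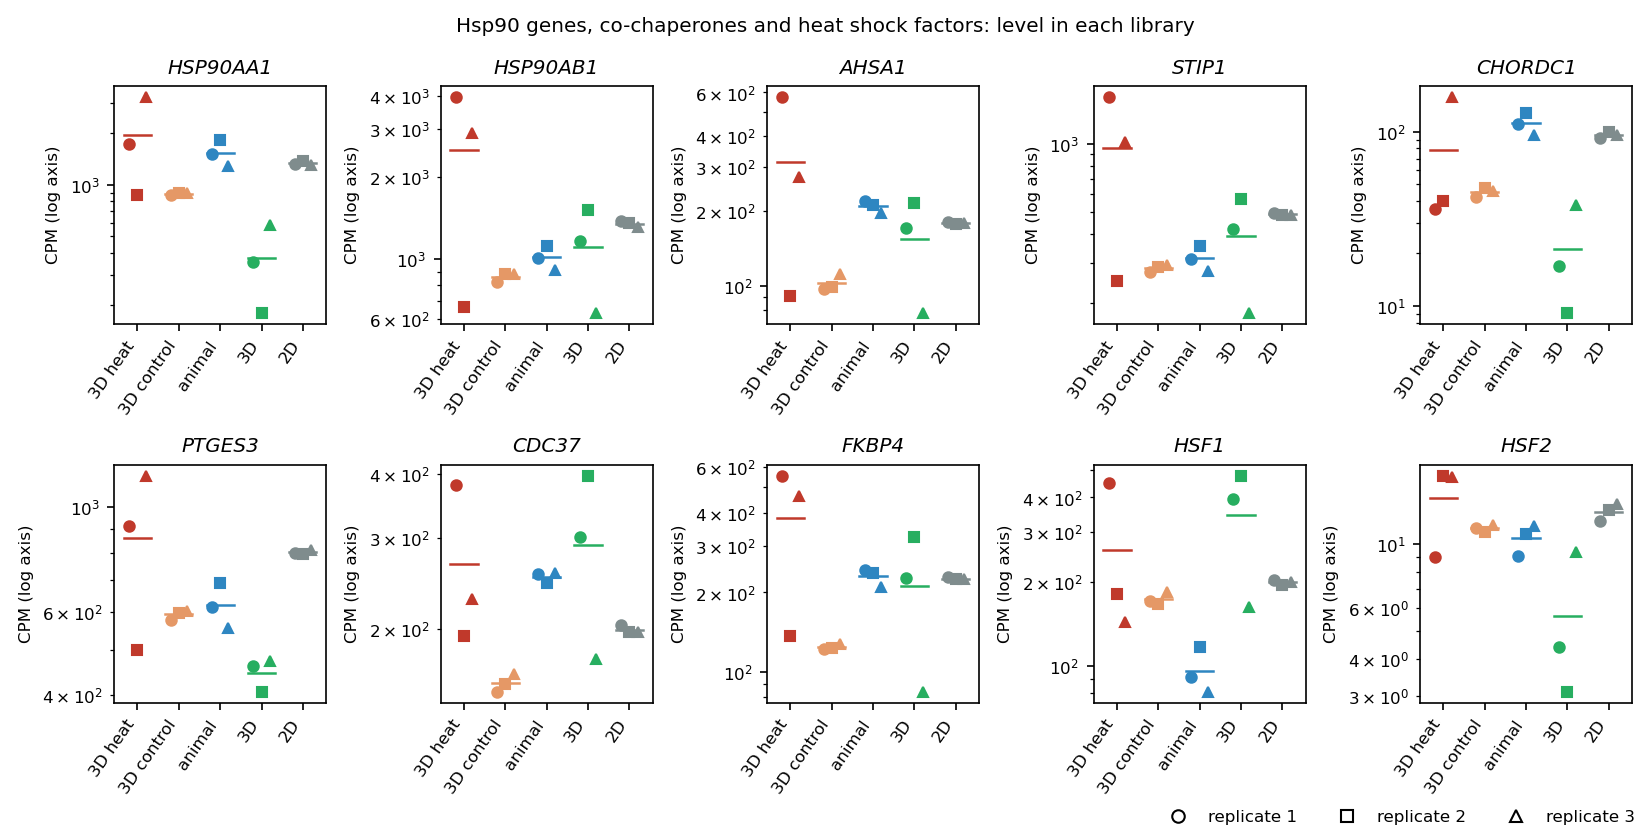
Level of each of the 10 genes in CPM on a log axis, for 3D heat, 3D control, animal, 3D and 2D libraries from left to right. Circles, squares and triangles are replicates 1, 2 and 3 and each bar is the mean of n = 3; the 3D control and 2D points lie close together, while the 3D heat and 3D points are spread, with HSP90AA1 at 180 to 584 CPM in 3D and 1309 to 1373 CPM in 2D.

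The comparison of heated with untreated 3D cells asks what heat changes. All 10 genes had a higher mean in the heated libraries, with log2 fold changes between 0.39 and 1.79 and a median of 1.01, against a median of 0.10 over all 12627 genes tested. None of the 10 was called (edgeR quasi-likelihood test, Benjamini-Hochberg adjusted p below 0.05), where 0.0238% of all genes were. At an unadjusted p below 0.05 there were 5 of the 10 members and 20.8% of all genes. DESeq2 called 2 members, STIP1 (adjusted p = 0.0332) and FKBP4 (adjusted p = 0.0186), beside 12.2% of all genes. The 3 heated libraries did not respond alike. The median member stood at 2.51 and 3.03 times the control mean in 3D heat replicates 1 and 3, but at 0.939 times that mean in replicate 2. The corresponding medians over all genes tested were 0.900, 0.964 and 1.0 for replicates 1, 3 and 2.

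Of the Hsp90 genes, HSP90AB1 measured 3956, 666 and 2912 CPM in 3D heat replicates 1, 2 and 3, against 825, 879 and 879 CPM in the 3D controls. Replicates 1 and 3 were above every control and replicate 2 was below every control. HSP90AA1 measured 1729, 873 and 3243 CPM with heat and 866, 890 and 892 CPM in the controls, so that replicate 2 lay inside the narrow range of the controls. The log2 fold changes were 1.59 ± 0.65 for HSP90AB1 (SE; adjusted p = 0.231) and 1.19 ± 0.52 for HSP90AA1 (adjusted p = 0.254). In replicate 1 the constitutive form HSP90AB1 stood at 4.59 times the control mean and HSP90AA1 at 1.96 times, and in replicate 3 they stood at 3.38 and 3.68 times. Replicate 1 is the heated library with the composition trend. Without it the log2 fold changes were 1.10 for HSP90AB1 and 1.26 for HSP90AA1, and with the GC and length offset 1.59 and 1.42.

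STIP1, AHSA1 and FKBP4 had the same order of heated libraries as HSP90AB1, with replicate 1 highest and replicate 2 lowest. STIP1 measured 1602, 249 and 1011 CPM with heat and 274, 287 and 293 CPM in the controls, a log2 fold change of 1.79 ± 0.65 (adjusted p = 0.193). Without heat replicate 1, which has the composition trend, that value was 1.19. AHSA1 measured 576, 91.1 and 275 CPM with heat against 97.3, 98.8 and 112 CPM. Its log2 fold change was 1.66, and 0.87 without heat replicate 1. FKBP4 measured 554, 137 and 462 CPM with heat and 122, 124 and 127 CPM in the controls. FKBP4 and CDC37 were the members whose groups did not overlap, 2 of 10, where 16.5% of all genes were higher without overlap. CDC37, the kinase adaptor, measured 380, 194 and 229 CPM with heat and 151, 157 and 164 CPM in the controls. PTGES3 had the smallest difference among the co-chaperones, at 860 ± 337 CPM with heat and 593 ± 13.4 CPM in the controls (SD, n = 3 each), a log2 fold change of 0.58.

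CHORDC1 departed from that pattern, since only replicate 3 was above the controls. It measured 35.7, 39.9 and 158 CPM with heat and 42.2, 47.6 and 45.6 CPM in the controls, a log2 fold change of 0.84 ± 0.60 (adjusted p = 0.439). Without heat replicate 3 its log2 fold change was -0.22, and without heat replicate 1, which has the composition trend, it was 1.17. The 2 factors also parted from each other. HSF1 measured 453, 180 and 143 CPM with heat and 170, 167 and 184 CPM in the controls, and its log2 fold change of 0.62 was -0.07 without heat replicate 1. HSF2 measured 8.98, 17.1 and 16.9 CPM with heat and 11.3, 10.9 and 11.6 CPM in the controls. HSF2 was thus above every control in replicates 2 and 3 and below every control in replicate 1.

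Calls among the members depended on which heated library was left out. Without heat replicate 2, HSP90AB1, AHSA1, STIP1 and FKBP4 were higher (4 of 10; adjusted p 0.0267 to 0.0431), where 4.55% of all genes were called higher. Without heat replicate 1, CDC37 (adjusted p = 0.0381) and HSF2 (adjusted p = 0.0220) were higher, 2 of 10 beside 14% of all genes. Without heat replicate 3, none of the members and none of the 12764 genes tested was called, a background of 0%. With the GC and length offset, none of the members was called, beside 10.8% of all genes, and the adjusted p of FKBP4 was 0.0596.

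The heat-inducible chaperones, a list of 20 genes known as HSF1 targets, also stood lowest in replicate 2. Their median stood at 5.63, 1.27 and 5.44 times the control mean in 3D heat replicates 1, 2 and 3, and 17, 13 and 20 of the 20 were above every control, as were 43.7%, 42.8% and 43.0% of all genes. Of those named here for their values, HSPA6, an Hsp70 gene that is nearly silent without stress, measured 2166, 108 and 1101 CPM with heat and 1.15, 1.43 and 0.878 CPM in the controls. HSPA6 was therefore far above its controls also in replicate 2, the library in which Hsp90 and most co-chaperones were not. HSPA1A measured 23949, 1304 and 15260 CPM with heat and 346, 355 and 370 CPM in the controls; how reads were split with the near-identical HSPA1B is uncertain. HSPA8, the constitutive Hsp70, was at 0.302 times the control mean in replicate 2. None of the 20 was called in edgeR, beside 0.0238% of all genes. An unadjusted p below 0.05 was found for 12, beside 20.8% of all genes, and DESeq2 called 11, beside 12.2%.

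**Figure D2:**
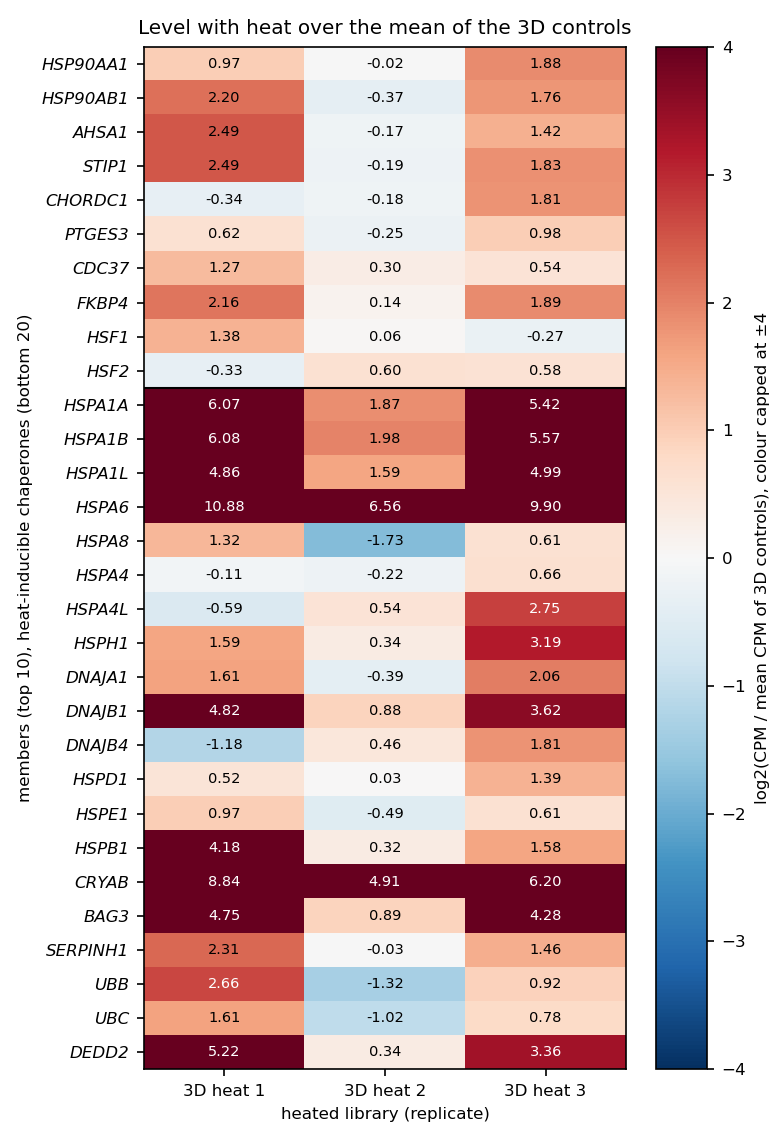
log2 of the level in each of the 3 heated libraries over the mean of the 3D controls, for the 10 genes described here (above the line) and the 20 heat-inducible chaperones (below it). Red is higher than the control mean and blue lower, with colour capped at 4 in either direction; in the middle column, replicate 2, the 10 genes lie between 0.773 and 1.52 times the control mean while HSPA6 is at 94.0 times.

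Promoter sequence was examined because the response of these genes to heat is known to run through heat shock elements. RefSeq windows on GRCh38.p14, each holding 250 bases before and 50 bases after a transcription start, were found for 8 of the 10 members. These members had 14 windows, since some have more than 1 start. They were searched on both strands for TTCNNGAANNTTC and its reverse complement GAANNTTCNNGAA, which join 3 units of a heat shock element and contain the 2-unit words TTCNNGAA and GAANNTTC. The 3-unit word was in 0.49% of the 35116 windows of that length and in 3 of the 14 member windows, those of HSP90AA1, HSP90AB1 and CHORDC1. The word TTCNNGAA was in 7.74% of all windows and in 4 of the 14 member windows, of 4 members, with STIP1 as the added one. The GC box GGGCGG or CCGCCC was in 45% of all windows and in 11 of the 14 member windows, of 7 members, all but CHORDC1. The stretches that hold the 3-unit words are shown 5′ to 3′, with TTCNNGAA and GAANNTTC words in capitals.
HSP90AA1, chr14:102087104-102087133, minus strand, bases -89 to -60 of a start within the gene: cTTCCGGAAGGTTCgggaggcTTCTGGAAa
HSP90AB1, chr6:44247753-44247852, plus strand, bases -190 to -91 of a start within the gene: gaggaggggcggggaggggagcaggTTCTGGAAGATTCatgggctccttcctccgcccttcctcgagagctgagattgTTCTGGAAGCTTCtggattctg
CHORDC1, chr11:90223084-90223113, minus strand, bases -64 to -35 of the start: accgGAAAATTCGCGAAGGTTCCTGAAacg
The 3-unit words of CHORDC1 overlap each other, and HSP90AB1 has separate ones. The HSP90AB1 stretch lies in an intron of longer transcripts, with no exon of a coding transcript under it, and the other 2 lie under exons of alternative coding transcripts in GENCODE. A match is a description of letters. With heat, the members that hold the 3-unit word differed in replicate 1, the heated library with the composition trend. There HSP90AA1, HSP90AB1 and CHORDC1 stood at 1.96, 4.59 and 0.793 times the control mean. In replicate 2 they stood at 0.989, 0.773 and 0.885 times that mean, and in replicate 3 at 3.68, 3.38 and 3.51 times. Whether the words bear on these levels was not tested.

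3D was set against 2D to see how the culture format alters expression. HSP90AA1, CHORDC1, PTGES3 and HSF2 fell in 3D, 4 of 10, where 12.9% of all 12925 genes tested were lower. None of the 10 rose, where 20% of all genes did. The median log2 fold change of the 10 was -0.36, against 0.03 over all genes. HSP90AA1 measured 355, 180 and 584 CPM in 3D replicates 1, 2 and 3, against 1322, 1373 and 1309 CPM in 2D. Every 3D library was below every 2D library, and the fall was 3.63-fold (log2 fold change -1.86 ± 0.39, adjusted p = 0.00917). CHORDC1 measured 16.9, 9.13 and 37.7 CPM in 3D and 91.3, 99.7 and 95.4 CPM in 2D, a 4.54-fold fall (adjusted p = 0.00911). The untreated 3D controls of the second experiment were not tested against 2D. They held HSP90AA1 at 866, 890 and 892 CPM and CHORDC1 at 42.2, 47.6 and 45.6 CPM. Both falls were called in all 15 alternatives, with log2 fold changes of -1.19 and -1.33 without 3D replicates 1 and 2.

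PTGES3 fell 1.84-fold, to 447 ± 35.4 CPM in 3D against 802 ± 7.44 CPM in 2D (SD, n = 3 each; adjusted p = 0.00643). The 3 libraries of the 3D group stood close together at 460, 407 and 474 CPM, and the call ended only with the GC and length offset (log2 fold change -0.19, adjusted p = 0.515). HSF2 measured 4.40, 3.09 and 9.36 CPM in 3D and 11.97, 13.004 and 13.6 CPM in 2D (log2 fold change -1.21 ± 0.40, adjusted p = 0.0451). The HSF2 call was kept in 7 of 15 alternatives, and leaving out 3D replicates 1 and 2 gave a log2 fold change of -0.45 (adjusted p = 0.0815).

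For the other 6 members the 3D libraries disagreed. HSP90AB1 measured 1167, 1514 and 633 CPM in 3D and 1382, 1357 and 1314 CPM in 2D (log2 fold change -0.34, adjusted p = 0.343). STIP1 measured 424, 571 and 181 CPM in 3D and 499, 485 and 484 CPM in 2D. In both, replicate 2 was above every 2D library and replicate 3 below every one. FKBP4 showed the same arrangement, at 227, 324 and 84.0 CPM in 3D and 228, 225 and 224 CPM in 2D, and so did AHSA1. HSF1 measured 394, 479 and 162 CPM in 3D and 203, 194 and 200 CPM in 2D (log2 fold change 0.74, adjusted p = 0.119). CDC37 measured 302, 396 and 175 CPM in 3D and 204, 197 and 197 CPM in 2D. In replicate 3, the 3D library without the composition trend, all 10 members were below every 2D library, with a median of 0.453 times the 2D mean, where 45.7% of all genes were below every 2D library.

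Without 3D replicates 1 and 2, 7 of 10 members were lower, where 23.6% of all genes were. HSP90AB1 (log2 fold change -1.09), AHSA1 (-1.20), STIP1 (-1.43) and FKBP4 (-1.42) were then called and HSF2 was not; the single remaining 3D library was assumed to vary like the other groups. HSF1 and CDC37 changed sign, to -0.29 and -0.18 without those libraries and to -0.48 and -0.65 with the GC and length offset. With that offset 6 members were lower, beside 18% of all genes: HSP90AA1, AHSA1, STIP1, CHORDC1, CDC37 and HSF2. Transcript GC content of the members ran from 38.2% in CHORDC1, 40.6% in PTGES3, 40.9% in HSF2 and 43.0% in HSP90AA1 to 59.95% in CDC37 and 63.9% in HSF1. The 4 genes that fell were thus the 4 of lowest GC content, and in 3D replicates 1 and 2 the members' departure from 2D ran with GC content.

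**Figure D3:**
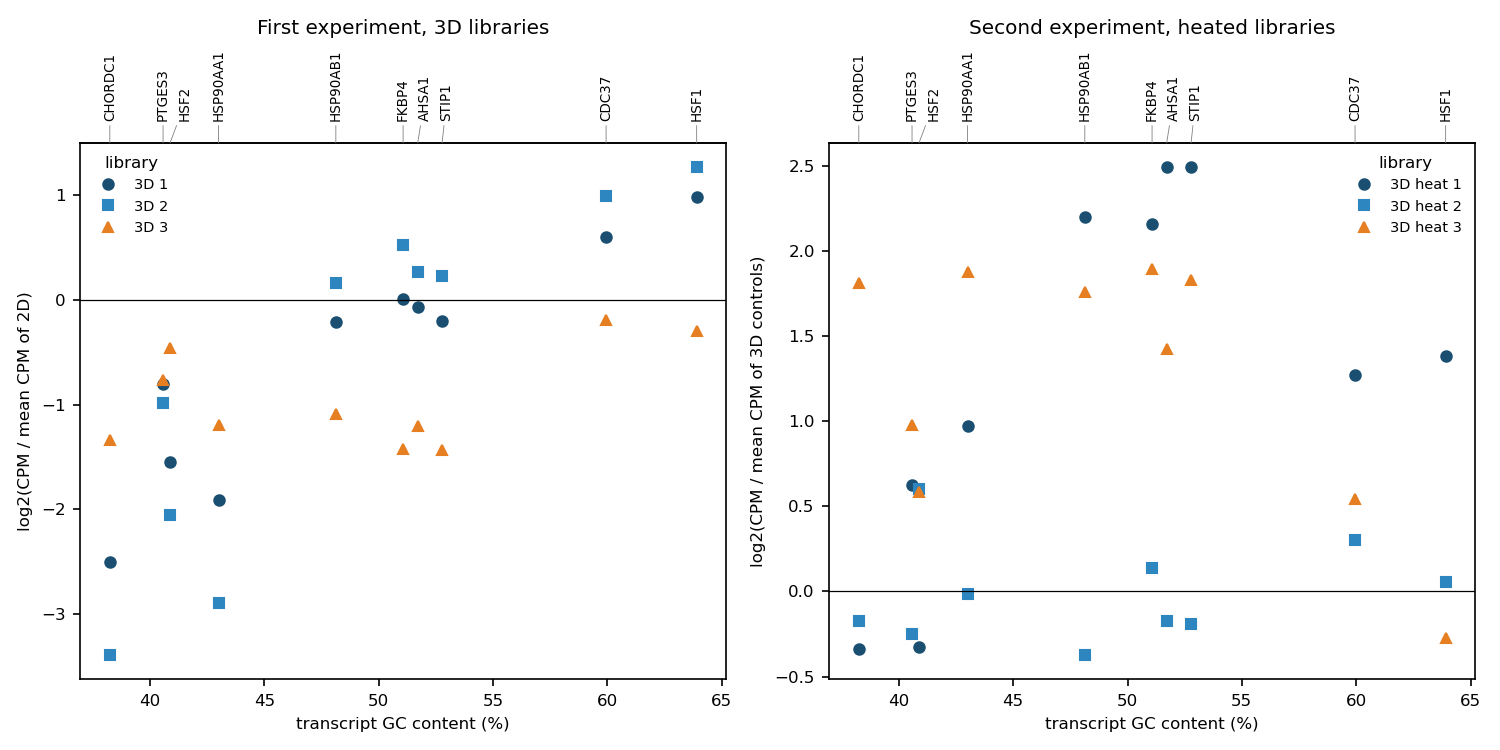
log2 of each member's level over the mean of its comparison group against transcript GC content in percent, for the 3D libraries over 2D on the left and the heated libraries over the 3D controls on the right. Dark circles, blue squares and orange triangles are replicates 1, 2 and 3; in 3D replicate 2 the values run from -3.39 for CHORDC1 to 1.27 for HSF1, while in 3D replicate 3 all 10 are below 0.

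Animal libraries were set against 2D to see what separates growth in a host from flat culture. None of the 10 members was called in edgeR, where 12% of all genes were, and DESeq2 called HSF1 alone, beside 18.9% of genes. At an unadjusted p below 0.05 there was 1 member, HSF1, and 26.6% of all genes. HSF1 measured 91.0, 117 and 80.7 CPM in the animal libraries and 203, 194 and 200 CPM in 2D; every animal library was below every 2D library (log2 fold change -1.03 ± 0.34, adjusted p = 0.0853 in edgeR and 0.0416 in DESeq2). With the GC and length offset the log2 fold change of HSF1 was -0.82 (adjusted p = 0.00638), and that fit called HSF1 and STIP1, 2 of 10, beside 27% of genes. HSP90AA1 was at 1531 ± 268 CPM in the animal libraries and 1335 ± 33.7 CPM in 2D, and HSP90AB1 at 1014 ± 103 CPM and 1351 ± 34.5 CPM (SD, n = 3 each). STIP1 measured 313, 354 and 277 CPM in the animal libraries and 499, 485 and 484 CPM in 2D (log2 fold change -0.62, adjusted p = 0.286).

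The groups did not overlap for 7 of 10 members, 2 of them higher, where 32.8% of all genes were higher without overlap, and 5 lower, where 33.8% were. AHSA1 and CDC37 were higher in every animal library, and HSP90AB1, STIP1, PTGES3, HSF1 and HSF2 lower. FKBP4 was nearly level, at 230 ± 18.0 CPM in the animal libraries and 226 ± 2.28 CPM in 2D. A fit to these 2 groups alone, whose spread is not shared with the 3D libraries, called 6 members, AHSA1 and CDC37 as higher and HSP90AB1, STIP1, PTGES3 and HSF1 as lower, beside 57.4% of all genes. Lists of markers of other cell types, which a host could add, had larger sums in every animal library than in any 2D library. Single markers did not all follow, since CD14 averaged 0.102 CPM in the animal libraries and 0.267 CPM in 2D. The summed level of 9 fibroblast and pericyte markers was 163 to 457 CPM in the animal libraries and 64.7 to 69.2 CPM in 2D, and that of 9 macrophage and leukocyte markers was 163 to 219 CPM in the animal libraries and 103 to 110 CPM in 2D. In 3D, those sums were 16.5 to 112 CPM for the fibroblast list and 387 to 501 CPM for the leukocyte list. The leukocyte sum was thus larger in every 3D library than in any animal library. CD68 carried most of the leukocyte sum, at 111 to 177 CPM in the animal libraries, 373 to 478 CPM in 3D and 97.6 to 103 CPM in 2D. Of the 6 leukocyte markers that could be tested, 4 were called higher in animal against 2D libraries, while TYROBP was at 0 in all 3 animal libraries and in 2 of 3 in 2D. The 6 endothelial markers summed to 8.85 to 18.9 CPM in the animal libraries and 2.55 to 2.99 CPM in 2D. Of these, KDR measured 4.25, 4.51 and 15.1 CPM in animal replicates 1, 2 and 3. VWF went the other way, averaging 0.0199 CPM in the animal libraries and 0.214 CPM in 2D. The part of host reads in these values was not tested, and fewer cells of a type and less RNA per cell cannot be told apart in bulk libraries.

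Against 3D, the animal libraries had higher HSP90AA1, CHORDC1 and PTGES3, 3 of 10 where 18.6% of all genes were higher, and lower HSF1, 1 of 10 where 22.9% were lower. The 3D libraries are the same ones as in the comparison with 2D. HSP90AA1 measured 1504, 1811 and 1278 CPM in the animal libraries and 355, 180 and 584 CPM in 3D, a 4.22-fold rise (log2 fold change 2.08 ± 0.40, adjusted p = 0.00465). CHORDC1 measured 110, 128 and 95.7 CPM in the animal libraries and 16.9, 9.13 and 37.7 CPM in 3D, a 5.35-fold rise (adjusted p = 0.00474). Both calls were kept in all 15 alternatives, at log2 fold changes of 1.38 and 1.55 without 3D replicates 1 and 2. HSF1 was 3.41-fold lower, at 96.2 ± 18.6 CPM in the animal libraries and 345 ± 164 CPM in 3D (SD, n = 3 each; adjusted p = 0.00508). The value of -1.77 on the log2 scale became -0.76 when 3D replicates 1 and 2 were left out (adjusted p = 0.00928) and -0.34 with the GC and length offset (adjusted p = 0.126).

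PTGES3 rose 1.44-fold over 3D (adjusted p = 0.0346), a call kept in 5 of 15 alternatives, and with the GC and length offset it turned to -0.42 on the log2 scale. Without 3D replicates 1 and 2, 8 members were higher and HSF1 was lower, beside 24.6% and 22.5% of all genes. HSF2 was the only member not called in that fit, with a log2 fold change of 0.15. Without 3D replicate 3 instead, 7 members were called, beside 77% of all genes, with STIP1 and CDC37 then lower (log2 fold changes -0.57 and -0.38) and HSF2 higher (1.57).

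**Figure D4:**
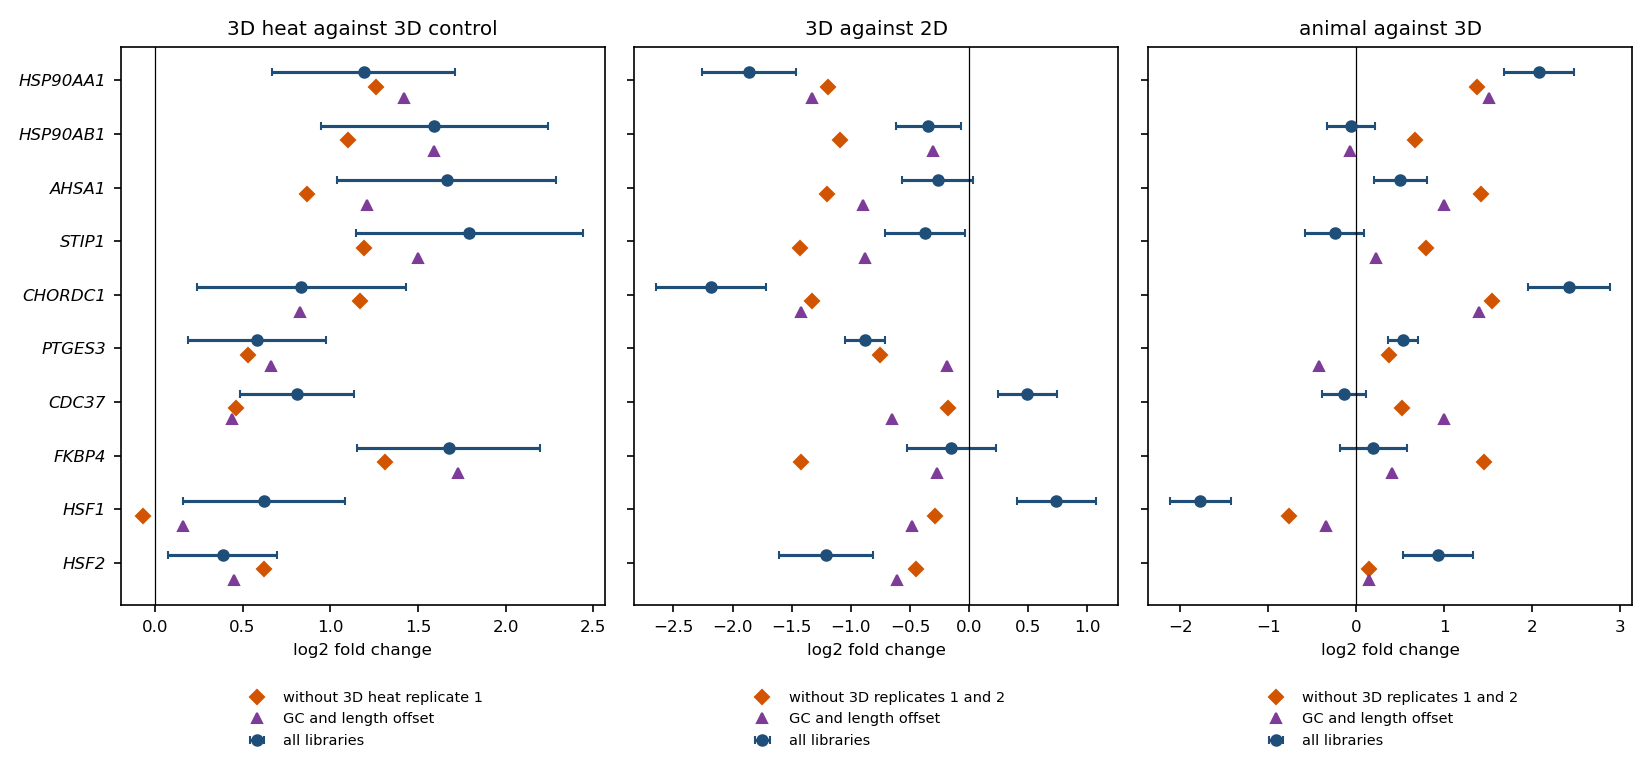
log2 fold change of the 10 genes for 3D heat against 3D control, 3D against 2D and animal against 3D. Blue circles are the fit to all libraries with bars of 1 SE, orange diamonds leave out heat replicate 1 or 3D replicates 1 and 2, and purple triangles add the GC and length offset; HSP90AA1 and CHORDC1 stay left of 0 in the middle panel and right of 0 in the right panel under all 3, whereas CDC37 crosses 0 in both.

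The ratio of HSP90AA1 to HSP90AB1 reads within a library does not depend on library scaling. It was 0.304, 0.119 and 0.922 in 3D replicates 1, 2 and 3, against 0.957, 1.01 and 0.996 in 2D. In the animal libraries it was 1.496, 1.62 and 1.40, above every 3D and 2D library. With heat it was 0.437, 1.31 and 1.11, against 1.05, 1.01 and 1.01 in the 3D controls. A two-sided exact permutation test of the log2 ratio gave p = 0.1 for animal against 2D, for animal against 3D and for 3D against 2D, the smallest p that 3 against 3 libraries allow, and p = 1 for heat (4 comparisons; none can pass an adjusted threshold of 0.05). The difference between animal and 2D was 0.60 on the log2 scale, and 0.55 after correction for GC content and length. The difference between 3D and 2D was -1.62, but -1.02 after that correction and -0.10 in 3D replicate 3 alone, the library without the composition trend. Between animal and 3D it was 2.22, but 1.56 after the correction and 0.70 against 3D replicate 3 alone.

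The ratio of HSF1 to HSF2 reads was 89.6, 155 and 17.4 in 3D replicates 1, 2 and 3 and 15.5 ± 1.26 in 2D (SD, n = 3). In the animal libraries it was 10.01, 10.8 and 7.03, below every 2D library, with an exact permutation p of 0.1 for each of the 3 comparisons within the first experiment. After correction for GC content and length the log2 difference between 3D and 2D was 0.15, against 2.01 before it, and that between animal and 2D was -0.37, against -0.76. With heat the ratio was 50.4, 10.5 and 8.50, against 15.4 ± 0.398 in the 3D controls (SD, n = 3; exact permutation p = 1), so that replicate 1 lay above and the other 2 below every control.

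**Figure D5:**
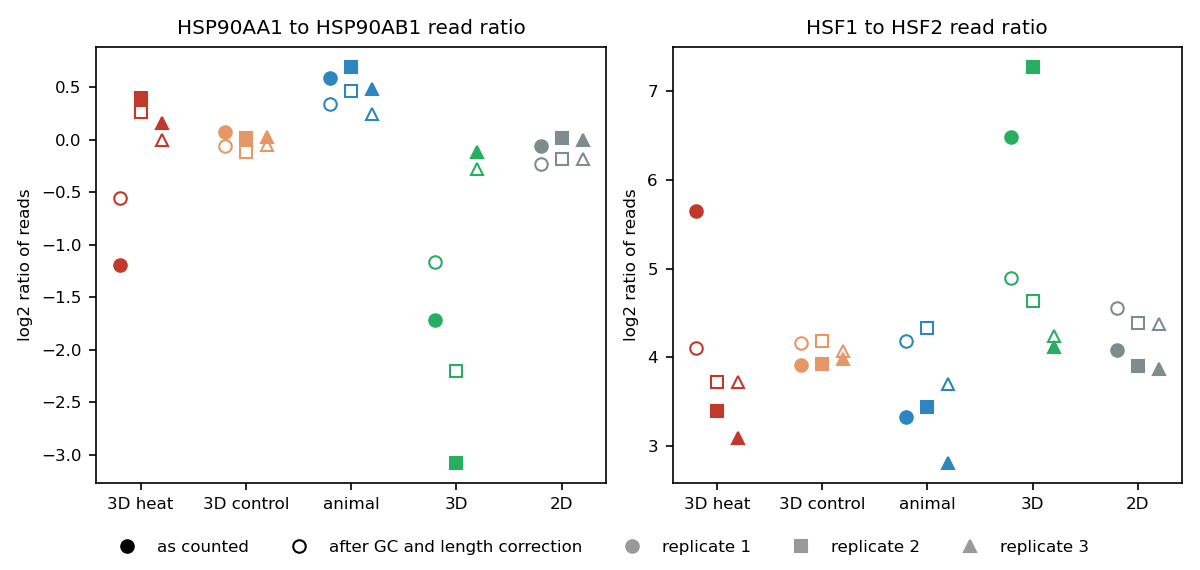
log2 ratio of HSP90AA1 to HSP90AB1 reads (left) and of HSF1 to HSF2 reads (right) in each library of the 3D heat, 3D control, animal, 3D and 2D groups. Circles, squares and triangles are replicates 1, 2 and 3, filled as counted and open after correction for transcript GC content and length; the animal libraries lie at 0.48 to 0.69 in the left panel, above the 2D libraries at -0.06 to 0.02.

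Some members kept a near-constant proportion to each other across all 15 libraries, which are of 5 groups. Among these libraries, 3D replicates 1 and 2 and 3D heat replicate 1 have the composition trend described above. STIP1 had 0.286 to 0.405 reads for each read of HSP90AB1, a 1.41-fold range, while HSP90AB1 itself ranged 6.25-fold. The ratio was lowest in 3D replicate 3 and highest in 3D heat replicate 1. The root-mean-square difference between their log2 profiles, each centred on its mean, was 0.131. Among 9385 genes compared, the members included, no gene outside the members was that near to HSP90AB1. The nearest of those outside, YRDC, was at 0.222. FKBP4 and AHSA1 were the next pair, at 0.205 from each other. The nearest gene outside the members was for both NUDC, itself a co-chaperone of Hsp90, at 0.213 from FKBP4 and 0.191 from AHSA1. The read ratio of HSP90AA1 to HSP90AB1 ranged 13.6-fold over the 15 libraries but 1.75-fold, 0.922 to 1.62, over the 12 without the composition trend, where that of STIP1 ranged 1.31-fold. The nearest member to HSP90AA1 was CHORDC1, at 0.451. The genes with the profiles most like HSP90AA1 were DCAF13 at 0.262, LARP1B, USP38, MAK16 and ZNF800 at 0.344, all of 36.1 to 42.0% transcript GC. Those most like HSF1 were TIGD5 at 0.122, VAT1, KIAA0930, HPS6 and USF2 at 0.191, of 51.6 to 64.5% GC.

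Of 25 other Hsp90 co-chaperones, 24 had a row and all 24 were tested. In 3D against 2D, 3 were higher and 6 lower, where 20% of all genes were higher and 12.9% lower, with a median log2 fold change of -0.43. FKBP5, an FKBP co-chaperone that lowers steroid receptor affinity, measured 21.2, 18.8 and 12.6 CPM in 3D and 142, 118 and 121 CPM in 2D (log2 fold change -2.90 ± 0.22, adjusted p = 0.000642). Unlike its relative FKBP4, it was low in all 3 libraries of the 3D group. In the untreated 3D controls of the second experiment FKBP5 measured 94.5, 106 and 110 CPM, and the difference between the rounds was not tested. PPID, a cyclophilin co-chaperone, was 2.56-fold lower (adjusted p = 0.00598), and 1.81-fold lower without 3D replicates 1 and 2. Calls among the 24 without 3D replicates 1 and 2 would rest on a single 3D library and are not given.

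In the animal libraries 1 of those 24 was higher and 1 lower than in 2D, beside 7.78% and 4.25% of all genes. PIH1D1, a subunit of the R2TP assembly complex, was at 81.0 ± 11.3 CPM in the animal libraries and 31.9 ± 0.401 CPM in 2D (adjusted p = 0.0174). The PIH1D1 call was kept in 9 of 14 alternatives and was lost when any 1 of the 2D libraries was left out. FKBP5 was at 44.7 ± 2.73 CPM in the animal libraries and 127 ± 13.4 CPM in 2D (SD, n = 3 each; adjusted p = 0.00285). Against 3D, 8 were higher and 3 lower in the animal libraries, beside 18.6% and 22.9% of all genes, with a median of 0.48, led by PPID (3.58-fold higher, adjusted p = 0.00137), FKBP5 (2.67-fold higher, adjusted p = 0.00176) and FKBP8 (4.88-fold lower, adjusted p = 0.00231). Without 3D replicates 1 and 2, FKBP8 was 2.18-fold lower and PPID 2.51-fold higher. With the GC and length offset the FKBP5 difference was not called (log2 fold change 0.71, adjusted p = 0.0779). With heat none of the 24 was called in edgeR, beside 0.0238% of all genes. An unadjusted p below 0.05 was found for 4, beside 20.8% of all genes, and DESeq2 called 3, beside 12.2%. FKBP5 measured 14.6, 35.3 and 29.1 CPM with heat and 94.5, 106 and 110 CPM in the 3D controls, below every control also in replicate 2 (log2 fold change -1.94 ± 0.36, adjusted p = 0.0904). The Hsp90 paralogs of other compartments were HSP90B1 of the endoplasmic reticulum and TRAP1 of mitochondria. HSP90B1 measured 313, 133 and 834 CPM in 3D and 665, 741 and 718 CPM in 2D, and was not called in any of the 4 comparisons. TRAP1 measured 73.9, 65.4 and 72.1 CPM in the animal libraries and 148, 229 and 66.9 CPM in 3D, and its fall (adjusted p = 0.0486) was called in 4 of 15 alternatives. With 3D replicates 1 and 2 left out, the animal and 3D libraries differed by a log2 fold change of 0.07.

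Among other heat shock factors and their regulators, HSF4 was higher in 3D than in 2D, at 16.7, 17.3 and 56.9 CPM in 3D and 10.9, 8.92 and 11.8 CPM in 2D (adjusted p = 0.0406), with replicate 3 well above the other two. HSBP1, a small protein that binds HSF1 trimers, was 1.61-fold higher (adjusted p = 0.0443). The HSF4 call was kept in 8 and the HSBP1 call in 6 of 15 alternatives, and neither with the replicate block, in a fit to these 2 groups or without any 1 of the 2D libraries. The log2 fold change of HSBP1 was 0.16 without 3D replicates 1 and 2. HSF5 had 0 reads in every library. Of the 20 heat-inducible chaperones, 2 were higher and 6 lower in 3D than in 2D, where 20% of all genes were higher and 12.9% lower, the smallest p-values being those of HSPA4 (2.91-fold lower, adjusted p = 0.00112), HSPD1 and DNAJA1. The counts were 0 higher and 12 lower with the GC and length offset, where 1813 and 2325 of the 12925 genes tested were. In the animal libraries 2 were higher than in 2D and none was lower, where 7.78% of all genes were higher and 4.25% lower: SERPINH1, a collagen chaperone, was 2.04-fold higher (adjusted p = 0.0275), and HSPA6 measured 26.8, 38.5 and 2.99 CPM in the animal libraries and 1.496, 1.43 and 1.02 CPM in 2D (adjusted p = 0.0114). Both calls were lost when any 1 of the 2D libraries was left out, and 3 of the 20 were lower with the GC and length offset and 6 in a fit to these 2 groups. HSPA6 was highest in animal replicates 1 and 2, and HSP90AA1 was at 1504 and 1811 CPM in those and 1278 CPM in replicate 3.

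Transcripts of 24 textbook Hsp90 clients were also counted, of which 21 were tested in the first experiment and 19 in the second. In 3D against 2D, 1 was higher and 4 lower, where 20% of all genes were higher and 12.9% lower. Leaving out 3D replicates 1 and 2 keeps a single 3D library, so client calls in that fit are not given. The kinase ULK1, which starts autophagy, was 3.85-fold higher (412 ± 12.1 CPM in 3D and 104 ± 4.83 CPM in 2D, SD, n = 3 each; adjusted p = 0.00105). CHUK, an NF-kB pathway kinase, was 4.57-fold lower (adjusted p = 0.00906), and 2.68-fold lower without 3D replicates 1 and 2. In the animal libraries FYN and NR3C2 were higher than in 2D, though both were under 1 CPM in every 2D library. With heat none of the 19 was called in edgeR, beside 0.0238% of all genes. An unadjusted p below 0.05 was found for 2, beside 20.8% of all genes, and DESeq2 called 1, beside 12.2%. Client transcripts do not measure client proteins, whose stability is what Hsp90 is known to affect.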

How the data were processed

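The authors deposited 1 table of whole-number read counts per gene symbol for 15 libraries. Per the labels' protocols, mRNA was purified, fragmented and primed with random hexamers, with no strand-marking step described. The submitters' processing notes name HISAT2 and hg19; the counting program, annotation and strand setting are not given in the sources used here. Depth bounds the precision of low genes such as HSF2. Both experiments were fitted separately, over 9 and 6 libraries, with edgeR 4.0.16 in R 4.3.3 (filterByExpr, TMM, robust quasi-likelihood test, Benjamini-Hochberg adjusted p below 0.05). SE is the log2 fold change divided by the square root of F. DESeq2 1.42.0, other scalings and filters, left-out libraries, a replicate block, fits to 2 groups and an offset (spline, 5 degrees of freedom, GENCODE 29 principal transcripts) were alternatives. The script was tested on simulated data. Genes named are the 10 members, the 3 called genes of smallest adjusted p in each list and comparison, all genes of lists of 5 or fewer, and the 5 genes nearest in profile to HSP90AA1 and HSF1; HSPA6, HSPA1A and HSPA8 with heat, FKBP5 with heat, YRDC and NUDC were chosen after their values were seen. Some genes that this rule names are not reported here. Likeness was taken over genes averaging 10 CPM or more. Rows named by a calendar date, 27 in number, held 0.168% of counts. Ranges over 12 libraries and the alternatives for single list genes were added after the data were seen. The members and lists were chosen with earlier results of these data known. Promoter sequences are RefSeq's, on GRCh38.p14.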

Additional observations from a re-analysis of the deposited data

How the results depend on the processing

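With heat, 0 members and 3 genes were called; the count of genes was 1541 with DESeq2, 1370 with the GC and length offset, 1 with RLE scaling and 30 with the replicate block, and 0 to 3691 when 1 library was left out. Members called were 2 with DESeq2 and 0 to 4 when 1 library was left out. Log2 fold changes that changed sign were those of CHORDC1 without heat replicate 3 and HSF1 without heat replicate 1; over left-out libraries they ran from -0.22 to 1.17 and from -0.07 to 0.91. The log2 difference in the HSP90AA1 to HSP90AB1 ratio was 0.24 without heat replicate 1 (range -0.56 to 0.24) and -0.02 with the GC and length correction, against -0.25. That in the HSF1 to HSF2 ratio was -0.70 without heat replicate 1 (range -0.70 to 0.58) and -0.29 with the GC and length correction, against 0.10.

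In 3D against 2D, members called were 7 without 3D replicates 1 and 2, against 4. Genes called were 2493 in a fit to these 2 groups and 1795 to 9493 when 1 library was left out, against 4247. CDC37 and HSF1 turned to -0.65 and -0.48 with the GC and length offset and to -0.18 and -0.29 without 3D replicates 1 and 2, and AHSA1 and FKBP4 to 0.04 and 0.21 without 3D replicate 3 (ranges -0.56 to 0.04 and -0.58 to 0.21). In animal against 2D, members called were 1 with DESeq2, 2 with the offset and 6 in a fit to these 2 groups, against 0. Genes called were then 2437, 3485 and 7289, with 1031 under the replicate block and 652 to 1154 when 1 library was left out, against 1555. CHORDC1 turned to -0.02 with the offset.

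In animal against 3D, members called were 7 without 3D replicate 3 and 9 without 3D replicates 1 and 2, against 4. Genes called were 2746 in a fit to these 2 groups and 3361 to 10132 when 1 library was left out, against 5367. HSP90AB1 turned to 0.09 with upper-quartile scaling, 0.22 without 3D replicate 2, 0.67 without 3D replicates 1 and 2, and 0.02 without animal replicate 3 (-0.32 without 3D replicate 3). STIP1 turned to 0.23 with the offset, 0.11 without 3D replicate 2 and 0.79 without both 3D replicates (-0.57 without 3D replicate 3). CDC37 turned to 1.0 with the offset, 0.01 with upper-quartile scaling, 0.13 without 3D replicate 2 and 0.52 without both (-0.38 without 3D replicate 3). PTGES3 turned to -0.42 with the offset and FKBP4 to -0.17 without 3D replicate 3 (0.62 without 3D replicate 2). The cause of these changes was not tested.

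No pairing of the samples by replicate number was seen, and the labels state none. The correlation of deviations between same-numbered libraries ran from -0.372 to 0.297. Deviations around a mean of 3 libraries cannot exclude a pairing. The replicate block left the members called at 4 in 3D against 2D, 0 in animal against 2D and 0 with heat, and at 3 in animal against 3D, against 4. Upper-quartile scaling shifted the median of all genes by -0.12 with heat and 0.11 in animal against 3D. Of 570 alternative values for members, 22 changed sign. HSF2, with 42 to 354 reads per library, is the member that depth limits most.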
